A study of Homo sapiens with 2 samples.

Results

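Purine and pyrimidine nucleotide synthesis was examined as a list of 31 enzymes of nucleotide synthesis and salvage in HCT116, a human colorectal cancer cell line. The members were chosen by their known enzymatic role, with earlier results of these data known. Each was read from probe sets that the platform annotation pairs with that gene alone. Of the 31 genes, 29 were measured, among 13704 measured genes in all. UCK2, a uridine-cytidine kinase, and NME2, a nucleoside diphosphate kinase, had only probe sets shared with another annotated gene and are not analysed here. Total RNA was labelled with biotin and read on 1 array for each of 2 cell lines. The first is HCT116-CPEB4, HCT116 cells that per the labels over-express CPEB4 from a lentiviral system, and the second is HCT116-GFP, labelled as wild type. Both were grown in RPMI-1640 with serum. The labels give neither the promoter of the lentiviral construct nor the number of clones, nor whether HCT116-GFP cells carried a vector of their own. CPEB4 is an RNA-binding protein that acts on poly(A) tails and translation of its target messages.

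Cells build purine rings stepwise on phosphoribosyl pyrophosphate (PRPP) until inosine monophosphate (IMP) is formed, and IMP is then turned into adenine or guanine nucleotides. Pyrimidine rings are closed first and joined to PRPP afterwards, which gives uridine and then cytidine nucleotides. Salvage enzymes return free bases and nucleosides to the pool, and ribonucleotide reductase with thymidylate synthase makes the deoxynucleotides that DNA replication uses. Several of these enzymes are targets of antimetabolite drugs, among them the fluoropyrimidines given for colorectal cancer.

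Levels below are intensities, and each difference is the log2 intensity of HCT116-CPEB4 less that of HCT116-GFP. There is 1 array per line, so no difference has a replicate check and no p-value was computed. The array labelled HCT116-CPEB4 did not read higher for CPEB4 itself. Its brightest CPEB4 probe set read 628 on that array against 731 on the HCT116-GFP array (−0.22), and 2 others differed by −0.44 and −0.08, while the dimmest lay under the brightness filter (60.8 intensity units) on both arrays. Where these probe sets lie in the transcript was not known, and a probe set outside the introduced sequence would check nothing, so directions rest on the labels and the arrays are named as labelled. The median intensity was 61.1 on the CPEB4-labelled array and 60.6 on the HCT116-GFP array. All 11 colon epithelial markers were measured, 9 of them with a probe set over that filter on both arrays. Summed over each array's own brightest probe set per gene, they read 62304 on the CPEB4-labelled array and 61483 on the HCT116-GFP array. KRT18 and EPCAM made up most of both sums. By gene, 7 markers were above 0 and 4 below, among the latter CDH1 (−0.33), CLDN4 (−0.37) and KRT20 (−0.41). CDX2 (120 and 103) and CEACAM5 (84.3 and 66.3) were not far over the filter. CDX1 and VIL1 were the markers dim on an array. Of the 6 blood markers 4 had a single-gene probe set and none passed the filter, and the summed intensities of those 4 were 159 and 134. All marker sums were taken in the same way, so the 2 sums of a list can rest on different probe sets. Of 6 fibroblast markers COL1A1 and DCN passed, DCN only through the CPEB4-labelled array, and the sums over all 6 were 1503 and 1124. Of 4 endothelial markers PECAM1 passed, and the sums over all 4 were 131 and 232. The ratio of 3′ to 5′ signal of the ACTB control probe sets was 10.3 on the CPEB4-labelled array and 8.23 on the HCT116-GFP array, and that of GAPDH was 1.04 and 0.989. Their part in the results was not tested.

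Nucleotide synthesis genes differed little as a group between the 2 arrays. Of the 29 measured members, 19 were above 0 and 10 below, and the median difference was 0.04 (1.03-fold), beside 50.1% above 0 and a median of 0.00 over all measured genes. NME4, a mitochondrial nucleoside diphosphate kinase, was the only member at or past 2-fold, and it was lower on the CPEB4-labelled array. No member was higher by 2-fold or more, which 3.55% of all genes were, and 3.85% of all genes were lower by 2-fold or more. At 1.5-fold the counts were likewise 0 higher and 1 lower, beside 8.22% and 8.3% of all genes. At a smaller limit, a log2 difference of 0.32 either way, 3 members were higher (10.3%), beside 17.7% of all genes, and 2 were lower (6.9%), beside 17.9%. CTPS1, DHODH and RRM2 made up the 3 higher members, and NME4 and CAD the 2 lower ones. RRM2 lay just inside that limit (0.322) at 0.324, and the next member below it was GUK1 at 0.225. These thresholds are rules of size and not tests. The all-gene shares include dim genes, which differ more between these arrays. When all genes were divided by brightness into 4 classes, the dimmest held 0 members. In it 32.4% of genes were higher and 34.9% lower by 0.32 or more. In the brightest class, with 22 of the 29 members, these shares were 6.8% and 7.62%. Each array read RNA of a whole culture, so more cells that express a gene and more RNA per cell cannot be told apart.

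**Figure D1:**
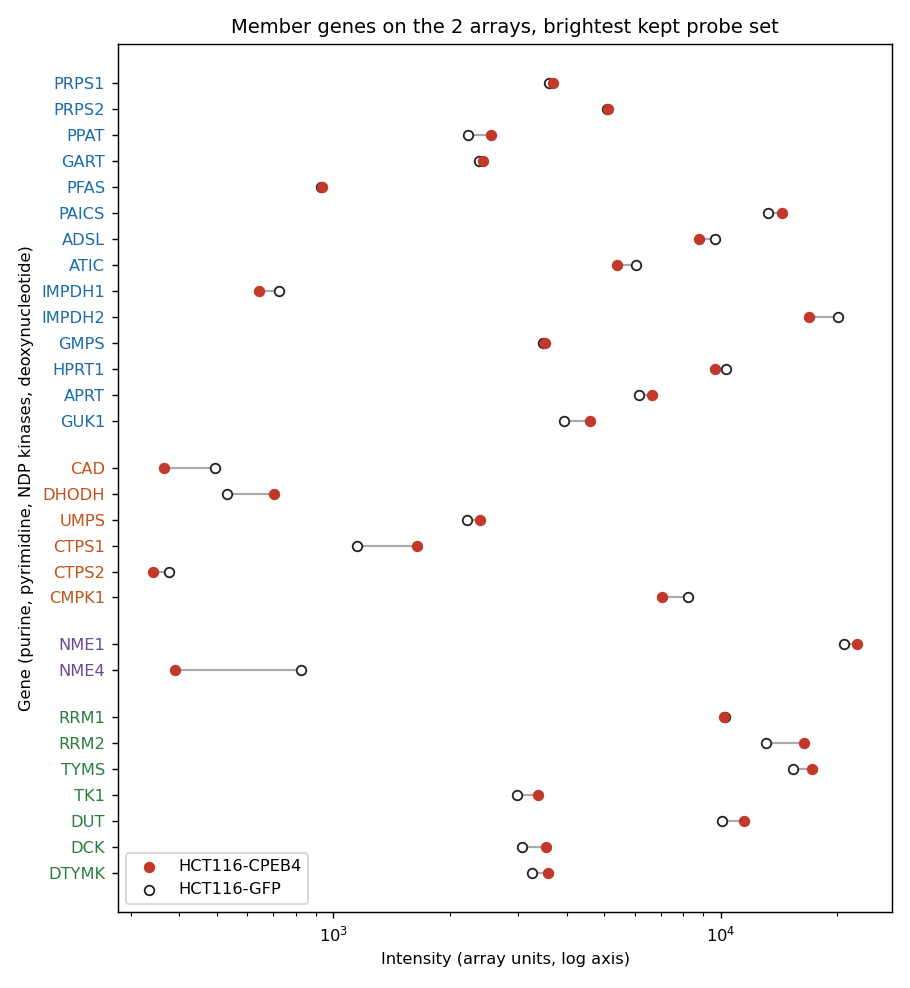
Intensity of the 29 measured member genes at their brightest kept probe set (log axis, array units), with filled points for the CPEB4-labelled array and open points for the HCT116-GFP array. Gene names are coloured by group from purine steps at the top to deoxynucleotide steps at the bottom, levels of different genes are not comparable, and the widest gap is that of NME4 (391 and 824).

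Purine genes were almost level between the arrays. Of 14 genes, 9 were above 0 and 5 below, with a median of 0.02, and none reached 0.32 in either direction. PRPP itself is made by the synthetases PRPS1 and PRPS2. PRPS1 read 3693 on the CPEB4-labelled array and 3602 on the HCT116-GFP array, and PRPS2 read 5122 and 5078. These differences were 0.04 and 0.01, although the dimmer PRPS2 probe set differed by −0.31.

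The 6 enzymes that assemble the purine ring had a median of 0.02 and ran from −0.16 to 0.20. PPAT, the amidotransferase that commits PRPP to purine synthesis, read 2555 on the CPEB4-labelled array and 2227 on the HCT116-GFP array (0.20), and its second probe set differed by −0.07. PAICS, which adds carbon dioxide and aspartate to the growing ring, read 14399 and 13234 (0.12), with its 3 probe sets between 0.02 and 0.38. PPAT and PAICS were the highest of the 6. GART, a protein with 3 activities early in the route, read 2434 and 2372 (0.04), and its next probe sets read 2578 and 2003 (0.36) and 490 and 313 (0.65). Its 7 kept probe sets ran from −0.88 to 0.65, with 4 above 0 and a mean of 0.04. The lowest of them passed the filter only through the HCT116-GFP array. PFAS, which adds a nitrogen from glutamine, read 937 on the CPEB4-labelled array and 931 on the HCT116-GFP array (0.01). The last enzymes of the ring were the lower ones. ADSL, the adenylosuccinate lyase that acts both here and in the adenine branch, read 8802 on the CPEB4-labelled array and 9684 on the HCT116-GFP array (−0.14), and its second probe set differed by −0.48. ATIC, which closes the ring to IMP, read 5414 and 6059 (−0.16). Both were lower on the CPEB4-labelled array, by small amounts at these probe sets.

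From IMP the guanine branch begins with IMP dehydrogenase, which 2 genes encode. IMPDH2 read 16879 on the CPEB4-labelled array and 20027 on the HCT116-GFP array (−0.25), the lowest purine value and at percentile 23.2 of all genes. IMPDH1 read 641 and 723 (−0.17). Each has 1 single-gene probe set, and both were lower on the CPEB4-labelled array. GMPS, which completes GMP, read 3527 on the CPEB4-labelled array and 3483 on the HCT116-GFP array (0.02), with probe sets from −0.23 to 0.41. GUK1, the kinase that turns GMP into GDP, read 4601 and 3936 (0.23), the highest purine value, while its second probe set read 51.1 and 79.4 and passed the filter only through the HCT116-GFP array.

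Purine bases are salvaged by 2 phosphoribosyltransferases. HPRT1, which salvages hypoxanthine and guanine, read 9642 on the CPEB4-labelled array and 10347 on the HCT116-GFP array (−0.10). APRT, which salvages adenine, read 6627 and 6153 (0.11), and its other probe set differed by 0.03. The salvage enzymes therefore stood on opposite sides of 0 by small amounts.

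**Figure D2:**
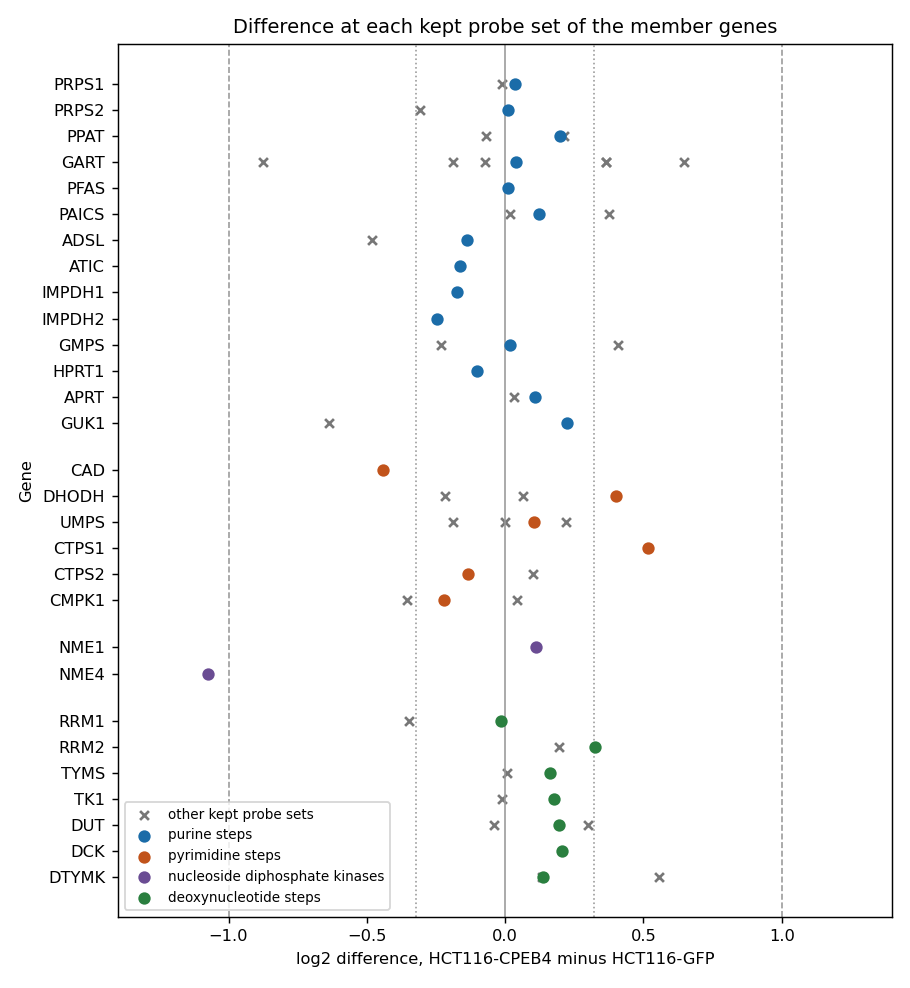
log2 difference (HCT116-CPEB4 minus HCT116-GFP, x axis) for each measured member gene (y axis), with the brightest kept probe set as a coloured circle by group and the other kept probe sets as grey crosses. Dotted lines mark a difference of 0.32 and dashed lines 2-fold. NME4 is the only circle past 2-fold (−1.08). The circles of 6 of the 7 deoxynucleotide genes lie above 0, beside 50.1% of all measured genes.

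Pyrimidine genes covered a wider range (−0.44 to 0.52) than purine genes (−0.25 to 0.23), in both directions. CAD and CTPS1, which set the pyrimidine range, were dimmer than most purine genes. Dimmer genes differ more between these arrays, as described below, and the part of brightness in this contrast was not tested. Of 6 measured genes, 3 were above 0 and 3 below, and the median was −0.01. CAD, the protein with 3 activities that begins pyrimidine synthesis, read 365 on the CPEB4-labelled array and 496 on the HCT116-GFP array, a difference of −0.44 (1.36-fold lower). Its other probe set was under the brightness filter, at 28.8 and 5.66. DHODH, the mitochondrial dehydrogenase of the route, read 702 on the CPEB4-labelled array and 533 on the HCT116-GFP array (0.40). The dimmer DHODH probe sets differed by 0.06 and −0.22, and the mean over all 3 was 0.08. UMPS, which makes UMP from orotate, read 2389 and 2220 (0.11), with 4 probe sets between −0.19 and 0.22. The measured steps to UMP thus had no common direction.

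CTP synthetase, which aminates UTP to CTP, is encoded by 2 genes that read differently. CTPS1 read 1644 on the CPEB4-labelled array and 1150 on the HCT116-GFP array, a difference of 0.52 (1.43-fold) and the highest of all members, at percentile 90.3 of all genes. CTPS2 read 343 and 376 (−0.13), and its second probe set differed by 0.10. CTPS1 has 1 single-gene probe set, so its value has no second reading. CMPK1, the kinase of UMP and CMP, read 7059 on the CPEB4-labelled array and 8227 on the HCT116-GFP array (−0.22), with 0.04 at its second probe set.

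Nucleoside diphosphate kinases make triphosphates of both families and of the deoxynucleotides. NME1, the cytosolic enzyme, read 22504 on the CPEB4-labelled array and 20848 on the HCT116-GFP array (0.11). Its sequence is close to that of NME2, and cross-hybridisation between them was not tested. NME4 read 391 and 824, a difference of −1.08 (2.11-fold lower) at percentile 3.44 of all genes. Both arrays were well over the brightness filter for NME4, which has 1 probe set. Its identifier ends in _s_at, the maker's mark for probes that can match more than 1 transcript, and what else it may match was not tested.

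Most deoxynucleotide genes were slightly higher on the CPEB4-labelled array at their brightest probe sets. Of 7 genes, 6 were above 0 (85.7%) and 1 just below, beside 50.1% of all measured genes above 0. The median was 0.18 (1.13-fold), with a range from −0.01 to 0.32. RRM1, TYMS, TK1 and DUT each had another kept probe set that was level or lower, at −0.35, 0.01, −0.01 and −0.04. RRM2, the regulatory subunit of ribonucleotide reductase that is made in S phase, read 16409 on the CPEB4-labelled array and 13112 on the HCT116-GFP array, a difference of 0.32. Its other probe set read 14540 and 12690 (0.20), so both were higher on the CPEB4-labelled array. RRM1, the catalytic subunit, read 10168 and 10274 (−0.01), with −0.35 at a dimmer probe set. RRM1 was thus level at its bright probe set, and a loess correction turned its sign (0.015).

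Thymidine nucleotides come from TYMS, which methylates dUMP and is the target of fluoropyrimidines, and from the salvage kinase TK1. TYMS read 17154 on the CPEB4-labelled array and 15327 on the HCT116-GFP array (0.16), but its second kept probe set differed by only 0.01. TK1 read 3370 and 2983 (0.18), with −0.01 at its second probe set. Both were higher at the brightest probe set and level at the other. DUT, the dUTPase that keeps uracil out of DNA and supplies dUMP, read 11503 on the CPEB4-labelled array and 10059 on the HCT116-GFP array (0.19), with probe sets from −0.04 to 0.30. DTYMK, the kinase of dTMP, read 3584 and 3260 (0.14), and its 3 kept probe sets ran from 0.13 to 0.56. DCK, which phosphorylates deoxycytidine and activates several nucleoside drugs, read 3541 on the CPEB4-labelled array and 3071 on the HCT116-GFP array (0.21) at its 1 probe set. In this group RRM2, DTYMK and, with 1 probe set, DCK had every kept reading at 0.13 or above.

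Promoter sequences of RRM2 and TYMS are shown as 2 deoxynucleotide genes whose promoters hold a searched motif, from RefSeq on GRCh38.p14, as the 250 bases before the annotated gene start on the plus strand. Capitals mark CCAAT in RRM2 at chr2:10122489-10122738 and an E2F motif, read on the minus strand, in TYMS at chr18:657403-657652.
RRM2: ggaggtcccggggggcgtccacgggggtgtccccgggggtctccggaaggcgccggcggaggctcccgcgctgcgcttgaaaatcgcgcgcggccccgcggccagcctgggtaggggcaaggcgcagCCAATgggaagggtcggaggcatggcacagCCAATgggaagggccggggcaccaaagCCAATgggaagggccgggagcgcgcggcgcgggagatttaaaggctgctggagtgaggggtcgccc
TYMS: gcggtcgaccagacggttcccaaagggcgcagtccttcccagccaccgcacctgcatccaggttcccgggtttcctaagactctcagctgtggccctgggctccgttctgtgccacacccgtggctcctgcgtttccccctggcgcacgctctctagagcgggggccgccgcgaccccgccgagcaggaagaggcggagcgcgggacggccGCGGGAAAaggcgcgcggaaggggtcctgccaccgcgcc
E2F factors act on genes of S phase, and CCAAT is bound by NF-Y. The E2F letters searched were TTTCCCGC, TTTCGCGC, TTTGCCGC and TTTGGCGC, and the others CCAAT and the E-box CACGTG that MYC binds, on both strands of a window from 250 bases before to 50 after each start. RRM2 held 3 CCAAT copies, the first letters lying 123, 93 and 66 bases before the start, and TYMS held its E2F match 39 bases before. Promoters of 29 of the 31 listed genes were matched, all but ADSL and IMPDH2. Only the first listed start of each gene was searched, so any other start was not covered. In these windows TK1 and DUT held no match of any of these motifs, and RRM2 none of E2F. An E2F match stood in 2 of 7 deoxynucleotide promoters (TYMS and DCK), 1 of 12 purine promoters (PRPS2), 0 of 7 pyrimidine and 0 of 3 nucleoside diphosphate kinase promoters, beside 3.33% of 27305 promoters. CCAAT stood in 3 of 7 deoxynucleotide promoters, 3 of 7 pyrimidine, 2 of 12 purine and 2 of 3 nucleoside diphosphate kinase promoters, beside 35.7%, and the E-box in 5 of 29 promoters beside 7.43%. A match of letters describes the sequence and is not evidence of binding.

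Most member transcripts were bright, and bright genes differ less between these arrays. When all measured genes were divided by mean intensity into 4 classes of equal size, 22 of the 29 members lay in the brightest class, 4 in the next and 3 in the one below. In the brightest class 47.6% of 3426 genes were above 0, against 16 of the 22 members there. The 10th and 90th percentiles of that class were −0.29 and 0.27, and RRM2 was the 1 member outside them. Higher by 0.32 or more were 6.8% of its genes, and only RRM2 among its 22 members. Lower by 0.32 or more were 7.62% of its genes and 0 of its members. In the next class CTPS1 and DHODH lay above the 90th percentile (0.37), and in the one below that NME4 lay under the 10th percentile (−0.45), with CAD just inside it. All 7 deoxynucleotide genes belong to the brightest class.

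**Figure D3:**
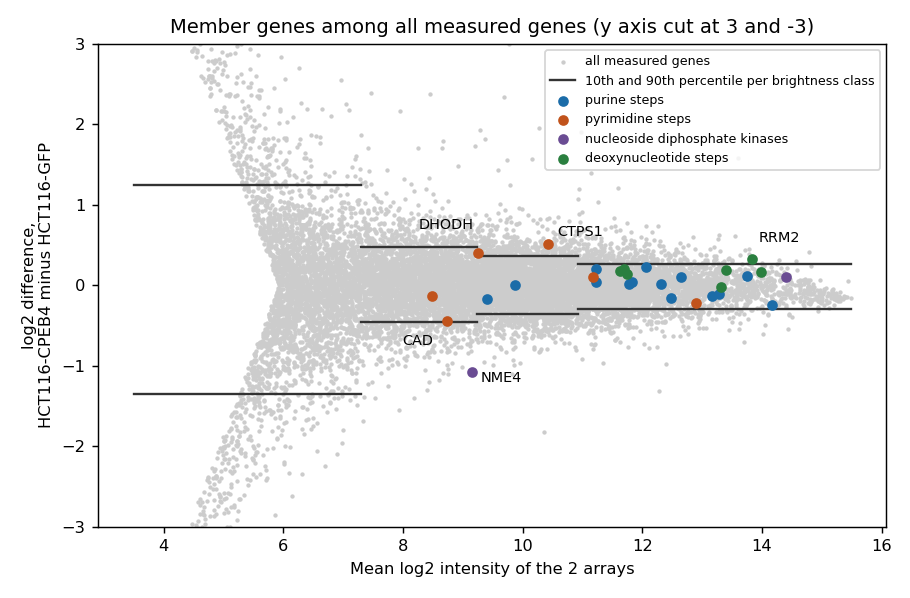
log2 difference (HCT116-CPEB4 minus HCT116-GFP) against mean log2 intensity of the 2 arrays for all 13704 measured genes (grey) and the 29 members (coloured by group); black lines are the 10th and 90th percentiles in each of the 4 brightness classes. NME4, CTPS1, DHODH and RRM2 lie outside the lines, and the other 25 members lie between them. By construction, 10% of the genes of each class lie above its lines and 10% below.

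Probe sets of 1 gene disagreed by more than most members differed between the arrays. The members have 69 single-gene probe sets, of which 62 passed the filter, 36 above 0 and 26 below. Counted by gene, 50.1% of all measured genes were above 0. Among the 19 members with several kept probe sets, 7 had all of them on 1 side of 0, and among all 6520 such genes 45.5% did. Of the 7, PAICS, APRT, RRM2, TYMS and DTYMK, were above 0, and ADSL and RRM1 were below. The gap between the 2 brightest probe sets of a gene had a median of 0.23 over these 19 members and 0.27 over all 6520 genes. Differences of NME4, CTPS1, CAD, DHODH and RRM2 exceeded the second value, and the first 3 of these genes have 1 kept probe set each.

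Other genes of nucleotide metabolism were also balanced, apart from single genes. A list of 78 further genes had 58 measured, 29 above 0 and 29 below, with a median of 0.00. At 2-fold or more, 2 were higher (CMPK2 and XDH, 3.45%), beside 3.55% of all genes. Lower by 2-fold or more was 1 gene (AK5, 1.72%), beside 3.85% of all genes. CMPK2, a mitochondrial nucleotide kinase that interferon induces, read 757 on the CPEB4-labelled array and 219 on the HCT116-GFP array (1.79), and it was the only one of the 3 over the brightness filter on both arrays. XDH, the last enzyme of purine breakdown, read 64.1 and 11.7 (2.45), while its other probe set, under the filter, differed by −0.17. AK5, an adenylate kinase, read 22.2 on the CPEB4-labelled array and 67.8 on the HCT116-GFP array (−1.61). XDH and AK5 each had 1 array under that filter.

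Among purine interconversion and salvage genes, 7 of 16 were above 0 (median −0.07). PNP, which frees purine bases from nucleosides, read 2745 on the CPEB4-labelled array and 2079 on the HCT116-GFP array (0.40). The adenosine kinase ADK differed by −0.10, with 0.20 at its second probe set, and ADSS1, which begins the adenine branch, by −0.18. AMPD1, an AMP deaminase, was the highest of this list at 64.0 and 32.5 (0.98), dim on the HCT116-GFP array. ADSS2 is not analysed here. Among pyrimidine salvage genes, 2 of 6 were above 0 (median −0.14). Cytidine deaminase (CDA) was the lowest, at 349 on the CPEB4-labelled array and 498 on the HCT116-GFP array (−0.52). The uridine kinases UCK1 and UCKL1 differed by −0.21 and −0.07, and the uridine phosphorylase UPP1 by 0.24.

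Genes around the deoxynucleotide pool had a median near 0 (−0.03), with 3 of 9 above 0. RRM2B, the reductase subunit that p53 induces, differed by −0.16, and the mitochondrial kinases TK2 and DGUOK by −0.14 and −0.34. The second DGUOK probe set differed by −0.20, and that of TK2 by 0.41. The deaminase DCTD differed by −0.30, the dNTP hydrolase SAMHD1 by 0.16 and the dCTP pyrophosphatase DCTPP1, the highest of the list, by 0.24. The 4 kept SAMHD1 probe sets ran from −0.205, at the second brightest, to 0.453.

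Supply and removal lists were centred near 0. Folate one-carbon genes had 5 of 9 above 0 (median 0.04), from ALDH1L1 at −0.45 to the reduced folate carrier SLC19A1 at 0.57, which read 800 on the CPEB4-labelled array and 541 on the HCT116-GFP array and whose next probe sets differed by 0.15 and 0.28. Breakdown genes had 6 of 11 above 0 (median 0.01), with the 5′-nucleotidase gene NT5C1A the lowest at −0.65, dim on the CPEB4-labelled array. The 4 measured equilibrative nucleoside transporters were all above 0, between 0.13 for SLC29A1 and 0.18 for SLC29A4, but a second SLC29A1 probe set differed by −0.37. Of the other nucleoside diphosphate kinases, NME6 (0.48) and NME5 (0.25) were higher and NME3 (−0.29) was lower.

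**Figure D4:**
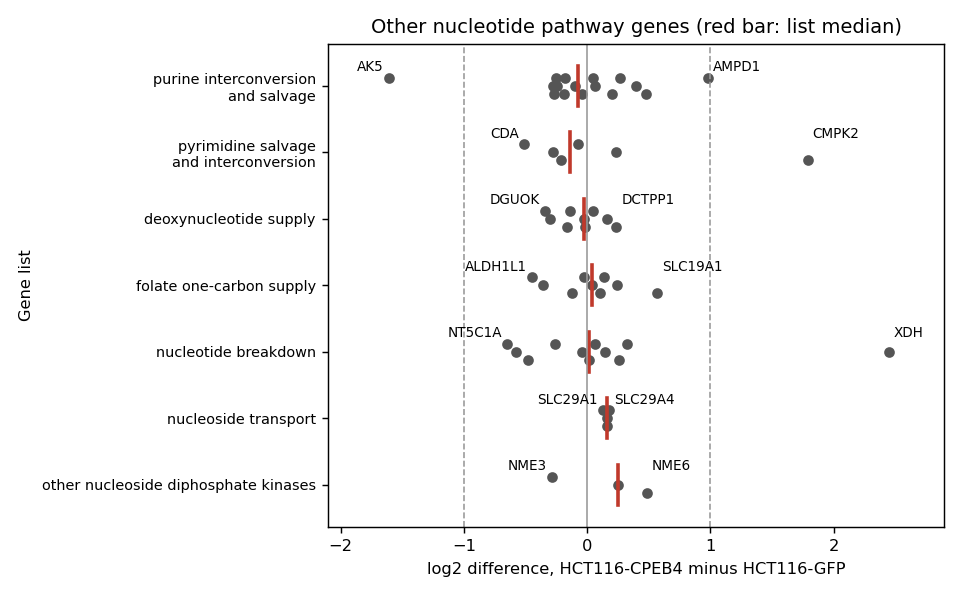
log2 difference (HCT116-CPEB4 minus HCT116-GFP, x axis) of the 58 other measured nucleotide pathway genes in 7 lists (y axis); each point is a gene, red bars are list medians, dashed lines mark 2-fold, and the lowest and highest gene of each list are named. CMPK2 (1.79), XDH (2.45) and AK5 (−1.61) lie past 2-fold.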

How the data were processed

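The deposited table holds 1 linear intensity per probe set and array, as the authors deposited it. The submitters' processing notes name Partek, with no version or role; summarisation, background correction and scaling were not given in the sources used here. Trimmed means were 500.1 on both arrays with 2% removed at each end, so the values appear already scaled to a common level. Of 54675 probe sets, 41097 have 1 gene symbol, 1801 several and 11777 none. Symbols were updated by Entrez identifier to the RefSeq table of GRCh38.p14, where 41043 were found.

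Each log2 intensity was taken without a pseudocount. A probe set was kept if its higher intensity reached 60.8, the 50th percentile of all values, which left 25010 named probe sets. Each gene was represented by the kept probe set that was brightest over both arrays. Groups came from the sample titles, and 0 columns were unused. All members were named, with the highest and lowest gene of each other list, those past 2-fold and genes completing a described step; further values are examples. Members and lists were chosen with earlier results of these data known. The steps were run on simulated arrays with planted changes well past 2-fold, so the reading of smaller differences was not tested. With 1 array per line, the number of arrays limits the precision. Python 3.11.15, pandas 2.3.3 and statsmodels 0.14.6 were used.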

Additional observations from a re-analysis of the deposited data

How the results depend on the processing

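The 8 alternatives were quantile normalization, a loess correction, median centring, a stricter filter (377 intensity units, the 75th percentile), no filter, the mean over a gene's kept probe sets, no probe sets ending in _s_at, _x_at or _a_at, and a pseudocount of 32. The deoxynucleotide median stayed between 0.15 and 0.21, and the median of all members between 0.03 and 0.07. The purine median ran from −0.05 to 0.03 and the pyrimidine median from −0.16 to 0.11, so neither has a settled sign. The count of members higher by 0.32 or more, 3 as reported, ran from 1 to 4. It was 1 with the mean over probe sets, where RRM2 differed by 0.26 and DHODH by 0.08, 2 after median centring, where RRM2 lay just under the limit, and 4 without probe sets of the 3 endings. In the last case 23 members were left. Among those lost were NME4, and also IMPDH2 and GUK1, which hold the lowest and the highest purine value. The counts lower by 2-fold and by 1.5-fold or more were then 0 and 0. Otherwise NME4 ran from −1.10 to −1.02, CTPS1 from 0.51 to 0.52 and CAD from −0.47 to −0.41. The sign turned in at least 1 alternative for 6 of 29 members, PRPS2, PFAS, GUK1, UMPS, RRM1 and DUT, whose reported differences were 0.23 or less in size. DUT was −0.04 and UMPS −0.19 without probe sets of the 3 endings. That UMPS value came from a dim probe set, at 71.8 on the CPEB4-labelled array and 81.8 on the HCT116-GFP array. The brighter UMPS probe sets differed by 0.11 and 0.22. GUK1 was −0.21 with the mean, through a probe set under the filter on the CPEB4-labelled array. Among other pathway genes, XDH was −0.17 without the filter, and DGUOK 0.16 with the mean over probe sets, through 1 probe set under the filter on the HCT116-GFP array while its brighter 2 were below 0. No setting moved the median of all genes by more than 0.01. No paired analysis was possible because each line has 1 array.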
